A study of Mus musculus with 12 samples.

Results

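The cytosolic ribosome of mouse brain was described through the mRNAs of its own proteins. Members were the rows of the deposited table whose gene symbol follows the Rps, Rpl or Rplp naming pattern with a number, with at least 120 reads summed over the 12 libraries; pseudogenes named with a -ps suffix and the kinases of the Rps6k family are outside the pattern. This gave 82 of the 43346 genes in the table, 32 of the small subunit (Rps) and 50 of the large subunit (Rpl and Rplp). The pattern matched 85 names in all. Just outside the read minimum lay Rpl39l with 38 reads, Rpl10l with 4 and Rps12l1 with 2, and the member with the fewest reads was Rpl3l with 264. All 82 members passed the filter on low counts and were among the 22553 genes tested.

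Ribosomes make every cytosolic protein from mRNA. Each consists of a small subunit, which reads the mRNA, and a large subunit, which joins amino acids, and each subunit holds ribosomal RNA and a set of proteins needed in near equal amounts. The mRNAs of these proteins are short, abundant and present in every cell type. Most begin with a C followed by a run of pyrimidines, the terminal oligopyrimidine (TOP) tract, through which the kinase complex mTORC1 and the protein Larp1 control their translation. That control acts on translation and is not seen directly in RNA levels. In mammals the genes of these proteins have also left many retrocopies, intronless copies of the mRNA inserted elsewhere in the genome.

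RNA came from a brain cross-section that included hippocampus and cortex, in 3 groups of 4 libraries. Young mice were 3 months old, had the strain label C57BL/6 and received no treatment. Old mice, aged 23 months and labelled C57BL/6;SJL-Tg for strain, were given the vehicle, 0.1% PEG in drinking water, from 9 months of age. Old_CP2 mice shared the age, strain label and vehicle of Old mice and received CP2, an inhibitor of mitochondrial complex I, at 25 mg/kg/day from 9 months. All 12 libraries are labelled wild type and their titles begin with NTG, while the design text of the series describes treated APP/PS1 mice; this conflict could not be settled. Old and Young differ in age, strain label and vehicle at once, so these cannot be told apart. Libraries are named here by group and the number in their title (Young 1, 3, 4 and 5; Old 7, 8, 9 and 10; Old_CP2 11, 12, 13 and 15). Nothing in the labels states that each is a separate animal, so p-values measure the spread between these libraries.

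Depth was 70548781 to 99449665 counts per library. Choroid plexus transcripts, summed over 10 markers, ranged over 1220 to 1963 CPM (a library's counts scaled to a common total) in Young; in Old the range was 27.8 to 974 and in Old_CP2 24.7 to 837, all 10 markers being detected in every library. Summed markers of midbrain and hindbrain reached 3.16 to 4.35 CPM in Young, against 24.6 to 87.7 in Old and 17.1 to 68.5 in the treated group. Erythrocyte transcripts were at 59.2 to 91.0, 81.6 to 148 and 228 to 443 CPM in the same order. The sections differed in measured tissue content along with the groups, and the part of this in the ribosomal protein values was not tested except by the covariate and left-out libraries named with the results. In bulk tissue, fewer cells of a type and less RNA per cell cannot be told apart.

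Per kilobase of the principal GENCODE transcript and averaged over all 12 libraries, the highest level was that of Rplp1, a stalk protein, at 663 CPM per kb. Rps21 followed at 463, Rpl41, the smallest ribosomal protein, at 437, Rps15 at 425 and Rpl13a at 396 CPM per kb. At the other end were Rpl5 at 32.2 CPM per kb and 4 genes named after another member, Rpl7l1 at 26.02, Rps27l at 20.7, Rps4l at 10.2 (on its deposited length) and Rpl3l, a muscle paralog, at 0.184 CPM per kb. The order depends on the length used: on the deposited lengths Rplp1 remained first, Rpl13a was 14th and Rpl5 75th of the 82.

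Promoter sequences in RefSeq (GRCm38.p6) covered 61 of the 82 members with 73 start sites. Within 10 bases of the annotated start, on the strand that reads as the mRNA, a C followed by at least 4 pyrimidines was present at 39 of the 73, or 53.4%, beside 30.7% of all 32851 promoters in the same table. The hexamer CGGAAG, the core that ETS factors bind, was found on either strand of the 300-base window in 60.3% of member promoters and 16.9% of all promoters. The TATA-box hexamer TATAAA was found in 9.59% and 13.6%. Matches are descriptions of these windows only. The sequences below run from 40 bases before to 20 bases after the RefSeq start and show how the tract, in capitals, sits at the start in members described further on; the last pair, Rps3 and Rpl26, had no match within 10 bases of the annotated start.
Rps6, chr4:86857348-86857407, minus strand: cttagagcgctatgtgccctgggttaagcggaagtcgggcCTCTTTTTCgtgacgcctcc
Rpl13a, chr7:45128726-45128785, minus strand: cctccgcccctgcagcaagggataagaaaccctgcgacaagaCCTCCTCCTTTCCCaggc
Rps15a, chr7:118116128-118116187, minus strand: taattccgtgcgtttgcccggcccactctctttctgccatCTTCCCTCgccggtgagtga
Rps18, chr17:33955646-33955705, minus strand: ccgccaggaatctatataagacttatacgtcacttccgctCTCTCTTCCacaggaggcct
Rps2, chr17:24720023-24720082, plus strand: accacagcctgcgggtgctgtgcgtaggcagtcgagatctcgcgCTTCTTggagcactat
Rps3, chr7:99483690-99483749, minus strand: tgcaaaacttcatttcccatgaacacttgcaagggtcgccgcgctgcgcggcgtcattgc
Rpl26, chr11:68901526-68901585, plus strand: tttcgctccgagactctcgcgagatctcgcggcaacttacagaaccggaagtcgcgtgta

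Together the members took 0.857% ± 0.078 (SD, n = 4) of all counts in Young, 0.855% ± 0.092 in Old and 0.837% ± 0.121 in Old_CP2. Library values were 0.853, 0.776, 0.837 and 0.963% in Young, 0.971, 0.862, 0.841 and 0.746% in Old, and 0.827, 0.735, 0.776 and 1.01% in Old_CP2. The 3 groups overlapped over most of their range, and each contained a library above 0.96%. The ratio of small to large subunit mRNA was narrower, 0.657 to 0.681 over the 12 libraries, with group means of 0.675 ± 0.005 in Young, 0.667 ± 0.009 in Old and 0.664 ± 0.003 in Old_CP2 (SD, n = 4). Young libraries, at 0.669 to 0.681, all lay above those of Old_CP2, at 0.660 to 0.668, and Old overlapped both. This difference was not tested, and reads of near-identical copies, described further on, are not part of the ratio.

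Most members stood high or low together in the same libraries, and each group held libraries of both kinds. Expressed as log2 CPM minus each member's own mean over the 12 libraries, the median member stood at 0.21 in Young 5, 0.16 in Old 7 and 0.21 in Old_CP2 15, and at -0.18 in Old 10, -0.20 in Old_CP2 12 and -0.14 in Old_CP2 13. In Old_CP2 15, 79 of 82 members were above their own mean, in Young 5 78 and in Old 7 73, whereas in Old 10 78 members were below it and in Old_CP2 12 74. The SD of these library medians within groups was 0.15. Summed CPM of 46 nuclear-encoded respiratory chain subunits, also short abundant mRNAs, was highest in Young 5 at 5041, Old 7 at 4857 and Old_CP2 15 at 4851, and lowest in Old_CP2 12 at 3914. What sets this shared level was not tested.

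**Figure D1:**
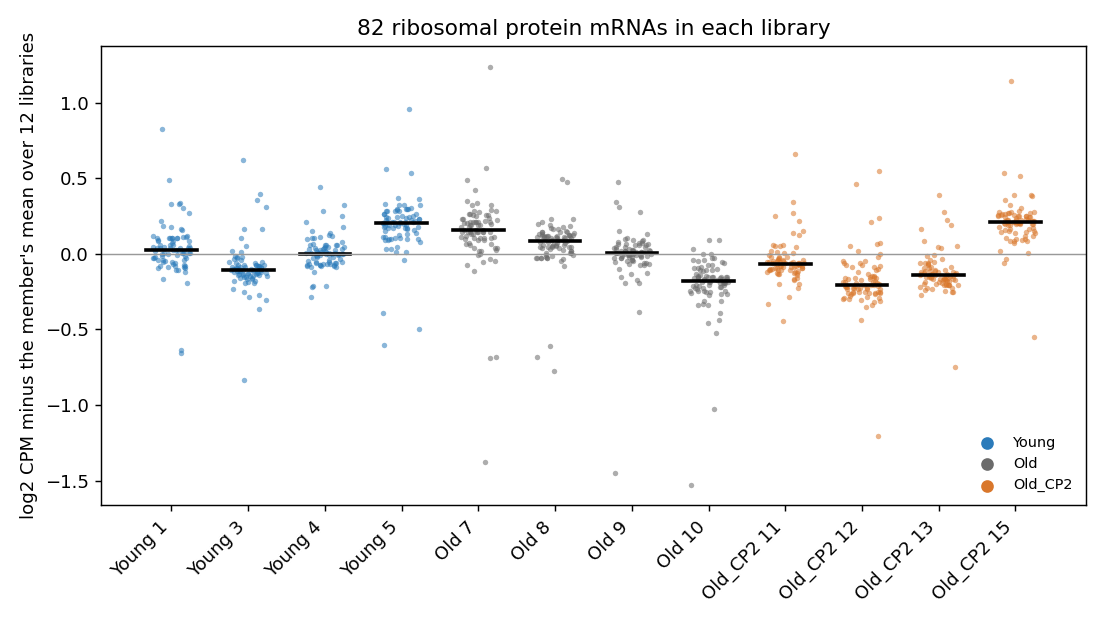
Each point is 1 of 82 ribosomal protein mRNAs in 1 library, as log2 CPM minus that member's mean over the 12 libraries (vertical axis); black bars are library medians and colours are groups. The medians run from -0.20 in Old_CP2 12 to 0.21 in Old_CP2 15, and a few points lie far from the rest of their library.

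After the library median was subtracted, the residual SD of a member over the 12 libraries had a median of 0.070 on the log2 scale, and 58 of 82 members were at or under 0.1. The tightest were Rpl17 at 0.026, Rpl11, which with Rpl5 and 5S ribosomal RNA forms a particle that binds the p53 regulator Mdm2, at 0.026, and Rps29 at 0.030. Rpl11 itself read 76.2 to 94.5 CPM in Young and 70.8 to 94.2 in Old, and its Old_CP2 libraries ran from 69.9 to 94.6. The residual SD was above 0.2 in 11 members: Rpl29 (0.76), Rpl34 (0.72), Rpl3l (0.63), Rps18 (0.53), Rps2 (0.50), Rps4l (0.43), Rpl21 (0.31), Rpl26 (0.27), Rpl30 (0.25), Rpl3 (0.21) and Rpl35a (0.20). These 11 departed from the level shared by the others, and most of what follows concerns them. For Rpl3l, with 264 reads in all, counting error is part of this spread.

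Old was compared with Young first, across the age, strain label and vehicle that separate these groups. Of the 82 members, 1 was lower in Old at an adjusted p under 0.05 (edgeR quasi-likelihood test, Benjamini-Hochberg adjustment over all genes) and 0 were higher, where 2.74% of all tested genes were called lower and 3.96% higher. At an unadjusted p under 0.05, 4 members were lower and 2 higher, 4.88% and 2.44% of the members, beside 10.3% and 11.2% of all genes. The median log2 fold change of the members was -0.0098, with 36 above and 46 below zero, and that of all genes -0.0034. The quartiles of the members lay at -0.059 and 0.034.

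The member called lower in Old was Rps4l, a gene named after Rps4x and annotated in GENCODE vM21 as a transcribed processed pseudogene with a single exon at chr6:148354656-148355598 (mm10). That exon lies within the span of another gene, Tmtc1 (chr6:148232430-148444389). The libraries were unstranded, so reads from Tmtc1 RNA at this exon cannot be told apart from those of Rps4l. Tmtc1 itself read 89.0, 97.1, 99.4 and 88.5 CPM in Young and 85.3, 101, 84.2 and 94.9 in Old. Rps4l read 11.6, 12.2, 11.6 and 13.4 CPM in Young, 10.3, 5.41, 7.11 and 6.46 in Old, and 6.82, 8.72, 12.2 and 9.84 in Old_CP2. All 4 Old libraries were below all 4 Young libraries, and Old_CP2 overlapped both. The log2 fold change of Rps4l in Old against Young was -0.73 ± 0.19 (SE; edgeR adjusted p = 0.037). Without any 1 of the 4 Young libraries, or without Old 8, Old 9, Old 10 or Old_CP2 12, the edgeR adjusted p of Rps4l lay between 0.052 and 0.091; with choroid plexus level as a covariate it was 0.18. Rps4x, the X-linked small subunit protein, read 187 ± 16.4 CPM in Young and 202 ± 22.8 in Old (SD, n = 4), and its own log2 fold change was 0.11 ± 0.10 (edgeR adjusted p = 0.58).

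Rpl3 lies close to the peptidyl transferase centre of the large subunit. It read 159, 139, 154 and 173 CPM in Young, 183, 181, 176 and 191 in Old and 196, 187, 189 and 233 in Old_CP2. Every Old and Old_CP2 library was above every Young library, and Old and Old_CP2 overlapped. In Old against Young the log2 fold change of Rpl3 was 0.23 ± 0.08, short of the threshold (edgeR adjusted p = 0.095); DESeq2 gave an adjusted p of 0.046. Rps2, at the mRNA entry of the small subunit, had a log2 fold change of -0.60 ± 0.21 (edgeR adjusted p = 0.11), and Rpl29, a small basic protein of the large subunit, one of -1.16 ± 0.34 (edgeR adjusted p = 0.058). Rpl29 was called by DESeq2 at an adjusted p of 0.028 and by limma voom at 0.032. Rpl41 at -0.22 ± 0.10 and Rps15a, of the small subunit body, at 0.15 ± 0.07 had edgeR adjusted p-values of 0.23 and 0.22. Rpl34 had the largest positive difference, 0.73, with an SE of 0.48 that left it at an edgeR adjusted p of 0.42.

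**Figure D2:**
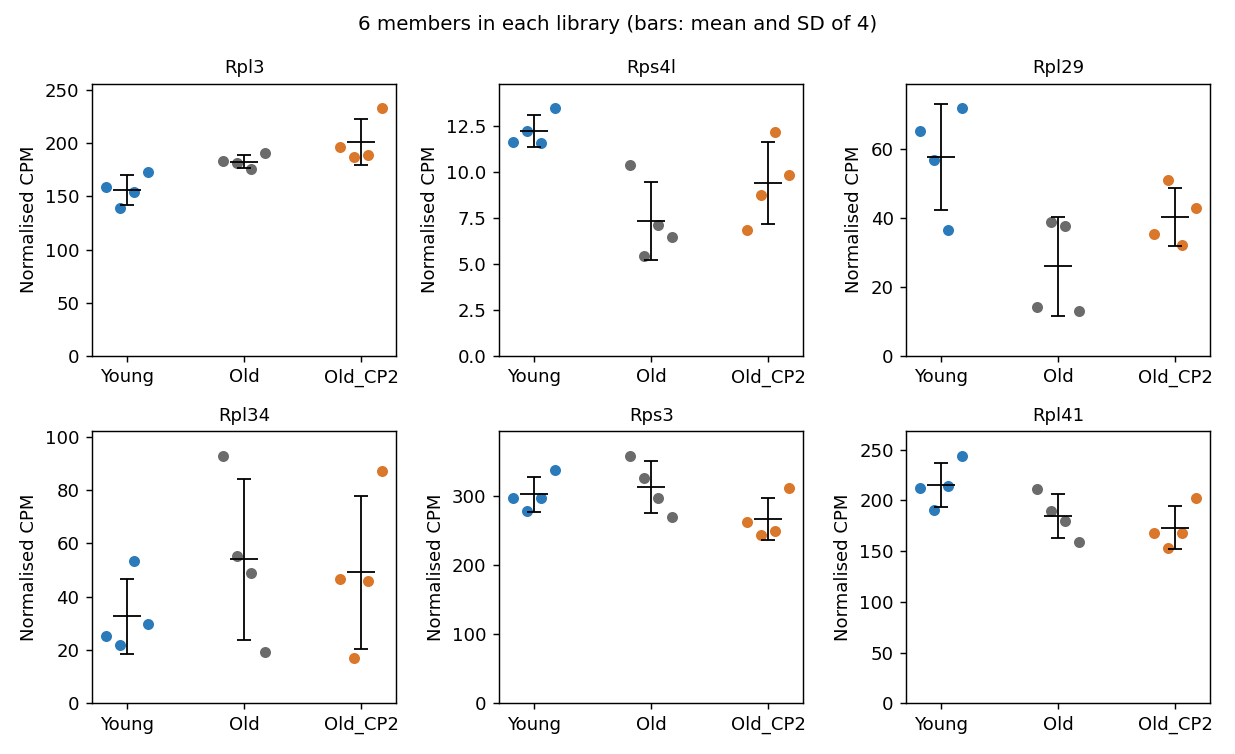
Normalised CPM (vertical axes, from 0) of 6 members in each of the 12 libraries, by group; black bars are the mean and SD of 4 libraries. Rps4l in Old and Rpl3 in Old and Old_CP2 do not overlap Young, Rpl29 and Rpl34 spread widely within groups, and Rps3 and Rpl41 overlap between groups.

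The comparison of Old_CP2 with Old addresses treatment at the same age, strain label and vehicle. No member passed the test (edgeR, 0 of 82 in each direction), where 0.0266% of all genes were called higher and 0.0177% lower. DESeq2 and limma voom also called 0 members. At an unadjusted p under 0.05, 0 members were higher and 1 was lower, beside 3.06% and 3.25% of all genes. The median of the members was -0.071 with 65 of 82 below zero, and that of all genes 0.0017. This shift was smaller than the SD of 0.15 between library medians within groups. The 46 respiratory chain subunits had a median of -0.078, with 41 below zero.

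Rps3, which lines the mRNA entry channel and also has a role in DNA repair, was the member with the smallest p against Old. It read 358, 327, 297 and 270 CPM in Old and 262, 244, 250 and 312 in Old_CP2, overlapping in Old_CP2 15. Its log2 fold change was -0.23 ± 0.10 (edgeR adjusted p = 0.73). Rpl14, of the large subunit, read 101, 109, 107 and 103 CPM in Old and 118, 110, 110 and 115 in Old_CP2, with no overlap, and its log2 fold change of 0.10 ± 0.06 did not pass (edgeR adjusted p = 0.83). With the reads of its copies added, described further on, Rpl14 read 115 to 124 CPM in Old and 115 to 132 in Old_CP2, which overlapped, and the log2 fold change was 0.037 ± 0.066 (edgeR adjusted p = 0.94). Rpl29 had the largest difference, 0.64 ± 0.34 (edgeR adjusted p = 0.81), its 4 Old_CP2 values lying between 32.3 and 51.1 CPM and its Old values between 12.9 and 39.0. Rpl36 at -0.21 ± 0.11, Rps4l at 0.35 ± 0.19, Rpl3 at 0.14 ± 0.08, Rps18 at 0.44 ± 0.25 and Rps2 at 0.36 ± 0.21 all had edgeR adjusted p-values of 0.82 or 0.83. With copies added, Rps18 was at 0.084 ± 0.084 and Rps2 at 0.14 ± 0.11 in Old_CP2 against Old (edgeR adjusted p = 0.90 and 0.87). When the 4 libraries with the least choroid plexus RNA were left out (Old 7, Old 9, Old_CP2 11 and Old_CP2 15), Rps2 was called higher in Old_CP2 at 0.75 (edgeR adjusted p = 0.0018). That choice leaves out the Old library in which Rps2 was high and the Old_CP2 library in which it was low.

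Old_CP2 against Young shares the Young libraries with the first comparison and the Old_CP2 libraries with the second. In it, 1 member was higher and 0 were lower, where 4.63% of all genes were called higher and 2.94% lower. At an unadjusted p under 0.05, 2 members were higher and 2 lower, 2.44% in each direction, beside 12.3% and 10.9% of all genes. The median was -0.074 with 64 of 82 below zero, and that of all genes -0.0076. The called member was Rpl3, with a log2 fold change of 0.37 ± 0.08 (edgeR adjusted p = 0.013). With choroid plexus level as a covariate the value for Rpl3 was 0.33 (edgeR adjusted p = 0.11), and leaving out the 4 libraries low in it gave 0.28 (edgeR adjusted p = 0.081).

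Other members named against Young missed the threshold. Rpl41 read 212, 191, 214 and 244 CPM in Young and 168, 153, 168 and 203 in Old_CP2, which overlapped in Old_CP2 15, and its log2 fold change was -0.32 ± 0.10 (edgeR adjusted p = 0.076; DESeq2 adjusted p = 0.027). Rpl14 was at 0.17 ± 0.06 and Rpl36al at -0.24 ± 0.10 (edgeR adjusted p = 0.12 and 0.16). With copies added, Rpl14 was at 0.063 ± 0.066 (edgeR adjusted p = 0.62). Rps16, near the decoding centre, stood at -0.21 ± 0.12, and Rps15a at 0.13 ± 0.07 (edgeR adjusted p = 0.29 and 0.30).

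**Figure D3:**
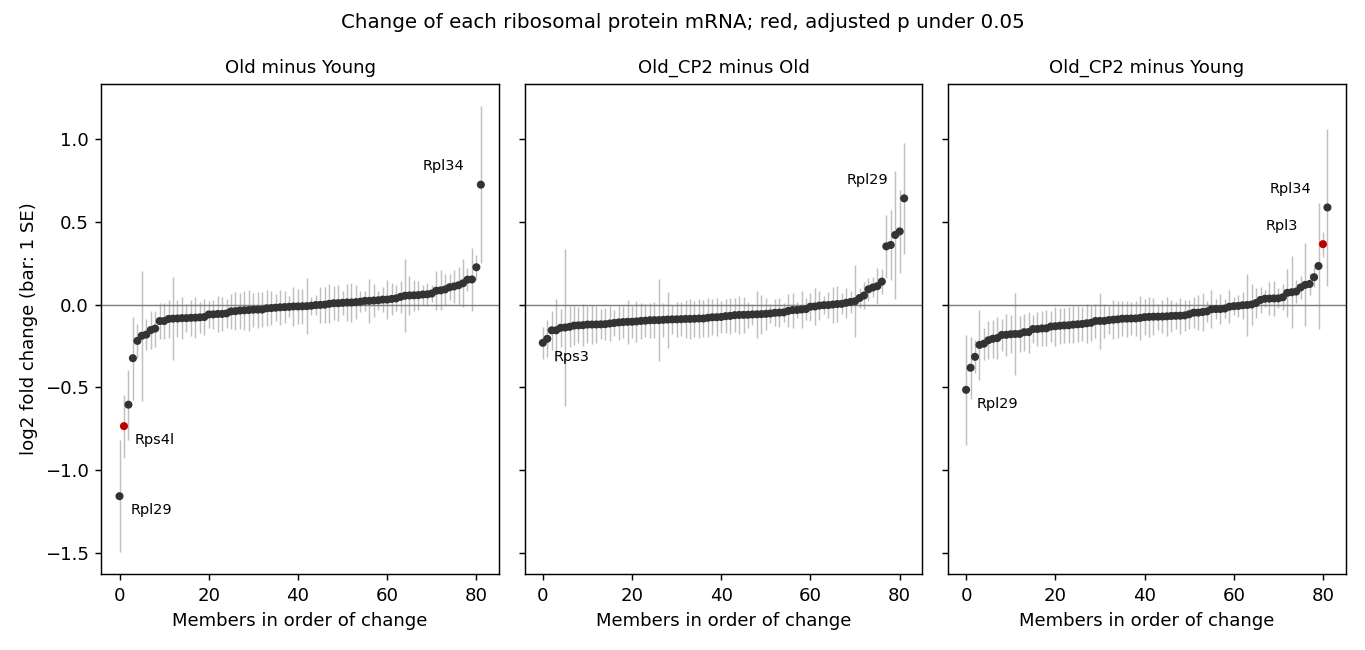
Log2 fold change of each of 82 members (vertical axis, bars of 1 SE) in the 3 comparisons, in order of size along the horizontal axis; red marks an adjusted p under 0.05 in edgeR. Rps4l is red in Old minus Young, Rpl3 in Old_CP2 minus Young and none in Old_CP2 minus Old, and most other members lie within 0.2 of zero.

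Of 14 members in the head of the small subunit, edgeR called 0 in any comparison, with 1 at an unadjusted p under 0.05 (Rps3, lower in Old_CP2 than in Old), and the medians were -0.031 (Old minus Young), -0.076 (Old_CP2 minus Old) and -0.084 (Old_CP2 minus Young). Of 16 in its body, edgeR called 0, with 2 at an unadjusted p under 0.05 in Old against Young (Rps2 and Rps15a), with medians of 0.0085, -0.058 and -0.057. The 7 proteins around the exit of the peptide tunnel had medians of -0.039, -0.10 and -0.083, with 0 called by edgeR and 0 at an unadjusted p under 0.05. Each of these stands beside medians of -0.0098, -0.071 and -0.074 over all members. Of all tested genes, edgeR called 2.74 to 4.63% in each direction against Young. It called 0.0266% higher and 0.0177% lower in Old_CP2 against Old. At an unadjusted p under 0.05 the shares were 10.3 to 12.3% in each direction against Young. In Old_CP2 against Old they were 3.06% higher and 3.25% lower.

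The stalk of the large subunit, which recruits elongation factors, is built on Rplp0 with copies of Rplp1 and Rplp2. Rplp0 read 136 ± 15.1, 141 ± 14.7 and 131 ± 13.6 CPM in Young, Old and Old_CP2, Rplp1 344 ± 37.6, 337 ± 46.2 and 312 ± 30.1, and Rplp2 66.9 ± 5.29, 66.7 ± 1.92 and 66.6 ± 3.02 (SD, n = 4). All 3 overlapped between groups in each comparison. Rpl5 was at 64.5 ± 4.59, 68.6 ± 12.2 and 64.6 ± 9.20 CPM and its partner Rpl11 at 84.2 ± 7.66, 83.6 ± 10.2 and 78.7 ± 11.2.

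Members with known further roles also overlapped between groups. Rps6, the substrate of S6 kinase downstream of mTORC1, read 55.6 ± 3.70 CPM in Young, 57.9 ± 3.78 in Old and 56.0 ± 8.10 in Old_CP2. Rps27a, made as a fusion with ubiquitin, read 102 ± 11.7, 108 ± 15.1 and 97.3 ± 15.03 CPM. Rpl13a, known for a role in translational silencing in inflammation, read 430 ± 41.5, 421 ± 45.5 and 394 ± 63.7, and Rpl10, added late in large subunit maturation, 68.9 ± 5.57, 70.1 ± 6.95 and 68.3 ± 10.4. Of 12 members whose human counterparts are mutated in Diamond-Blackfan anemia, edgeR called 0 in any comparison and 0 had an unadjusted p under 0.05. Their medians were 0.00041, -0.087 and -0.087. Of all tested genes, 2.74 to 4.63% were called in each direction against Young, and 10.3 to 12.3% had an unadjusted p under 0.05. In Old_CP2 against Old the unadjusted shares were 3.06% higher and 3.25% lower.

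Paralogs here are genes named after another ribosomal protein gene. Whether each can take the place of its partner was not tested, and Rps4l is annotated as a processed pseudogene. Rpl22l1 stood at 63.0% ± 6.1 of Rpl22 in Young, 57.5% ± 6.3 in Old and 58.2% ± 4.8 in Old_CP2 (ratio of CPM, SD, n = 4), the highest share of any paralog here, and the groups overlapped. Rpl36al stood at 50.9% ± 1.0 of Rpl36a in Young, 45.3% ± 1.0 in Old and 47.6% ± 2.4 in Old_CP2. The 4 Young values ran from 49.9 to 52.3% and the 4 Old values from 44.5 to 46.8%, with no overlap, while Old_CP2 at 44.7 to 50.5% overlapped both. Neither gene of that pair was called alone, Rpl36al at -0.18 ± 0.10 and Rpl36a at -0.01 ± 0.12 in Old against Young (edgeR adjusted p = 0.31 and 0.98). Rps27l, a target of p53, stood at 22.7% ± 1.8, 21.0% ± 1.5 and 21.4% ± 2.0 of Rps27, and Rpl7l1, linked to large subunit assembly, at 19.6% ± 1.4, 19.4% ± 1.4 and 21.4% ± 3.2 of Rpl7. Rps4l stood at 6.54% ± 0.33 of Rps4x in Young, 3.63% ± 0.89 in Old and 4.93% ± 1.27 in Old_CP2, and Rpl3l at 0.162% ± 0.044, 0.119% ± 0.050 and 0.146% ± 0.054 of Rpl3. Rpl39l, outside the read minimum, was at or under 0.173% of Rpl39 in every library.

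Retrocopies bear on how each member's reads could be counted. Among GENCODE vM21 transcripts, 702 copies matched the coding sequence of a member at 90% identity or more over at least 60% of its length, 686 of them annotated as pseudogenes, and 638 had at least 1 read. In all, 75 members had a copy, with a median of 5 and at most 54, for Rpl21. Taking all 101-base stretches of a member's coding sequence, the length of 1 read, a median of 63.2% were found letter for letter in a copy, and in 52 of 80 members at least 50% were. Untranslated parts of the mRNA and the second read of each pair were left out of this count. It is therefore not the share of a member's reads that could come from a copy. Rps27 and Rps27rt on chromosome 9 had 0 differing bases over 252 coding bases, and Rps27rt held 53.2 to 55.1% of the reads of the pair in every library. Whether reads were assigned by a unique place or not is not given in the sources used here, so member and copy values are given together below.

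Rps18, of the small subunit head, and its copy Gm10260 on chromosome 13 differ at 4 of 456 coding bases. The 101 bases with the most differences are shown (positions 331 to 431 of the coding sequence, GENCODE vM21, mm10), with differing bases in capitals; the Rps18 span includes an intron of 102 bases that is not printed.
Rps18, chr17:33952071-33952273, minus strand: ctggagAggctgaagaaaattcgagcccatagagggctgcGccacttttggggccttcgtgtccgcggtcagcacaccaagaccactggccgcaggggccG
Gm10260, chr13:97760158-97760258, minus strand: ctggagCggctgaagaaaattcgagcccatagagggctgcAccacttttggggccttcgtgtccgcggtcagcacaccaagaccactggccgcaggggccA

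Rps18 read 100.3, 91.4, 71.1 and 47.2 CPM in Young, 44.6, 44.6, 99.3 and 59.1 in Old, and 90.6, 82.7, 86.6 and 76.8 in Old_CP2. Gm10260 went the other way, at 0.401, 0.675, 17.9 and 40.8 CPM in Young, 37.1, 36.2, 0.732 and 15.4 in Old, and 0.437, 0.387, 0.390 and 19.2 in Old_CP2. As a share of the reads of the pair, Gm10260 took 3 levels: 0.399 to 0.733% in 6 libraries (Young 1 and 3, Old 9, Old_CP2 11, 12 and 13), 19.96 to 20.7% in 3 (Young 4, Old 10 and Old_CP2 15) and 44.8 to 46.4% in 3 (Young 5, Old 7 and Old 8). All 3 levels occurred among libraries labelled C57BL/6 and, across Old and Old_CP2, among those labelled C57BL/6;SJL-Tg. With copies added to the member, Rps18 had a residual SD of 0.17 in place of 0.53, and its log2 fold change in Old against Young was -0.13 ± 0.08 in place of -0.32 ± 0.25 (edgeR adjusted p = 0.42 and 0.51).

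Rpl26, near the tunnel exit, and Gm15772 on chromosome 5 differ at 2 of 435 coding bases. Bases 77 to 177 of the coding sequence hold 1 of the 2, in capitals; the Rpl26 span includes 736 intron bases.
Rpl26, chr11:68902351-68903187, plus strand: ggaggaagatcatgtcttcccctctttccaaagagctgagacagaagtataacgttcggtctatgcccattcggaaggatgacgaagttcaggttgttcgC
Gm15772, chr5:3236507-3236607, plus strand: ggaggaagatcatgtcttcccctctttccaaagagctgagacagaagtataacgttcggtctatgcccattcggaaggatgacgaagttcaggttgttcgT

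Gm15772 took 2 levels. It held 6.64 to 7.24% of the reads of the pair in Young 1, Old 7, Old 9, Old_CP2 12 and Old_CP2 13, and 40.2 to 41.4% in the other 7 libraries. Rpl26 itself read 107, 69.0, 73.6 and 85.8 CPM in Young, 126, 80.6, 103 and 63.1 in Old and 67.8, 86.3, 95.6 and 85.7 in Old_CP2. Its residual SD went from 0.27 to 0.076 with copies added, close to the median of all members, and it was called in no comparison either way.

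Rpl3 and Rpl3-ps1 on the X chromosome differ at 2 of 1209 coding bases, and 85.8% of the 101-base stretches are identical. The first 101 coding bases hold 1 difference, in capitals; the Rpl3 span includes 741 intron bases.
Rpl3, chr15:80082485-80083326, minus strand: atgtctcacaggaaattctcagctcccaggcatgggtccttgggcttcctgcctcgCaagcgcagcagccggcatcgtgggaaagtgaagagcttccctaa
Rpl3-ps1, chrX:13202572-13202672, plus strand: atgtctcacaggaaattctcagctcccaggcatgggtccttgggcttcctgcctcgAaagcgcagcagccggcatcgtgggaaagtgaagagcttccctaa

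Rpl3-ps1 held 16.8 to 18.1% of the reads of the pair in all 4 Young libraries and in Old 7, 8 and 9, and 11.3 to 11.8% in Old 10 and all 4 Old_CP2 libraries. The share of the copy separated all 4 Old_CP2 libraries from all 4 Young ones, as Rpl3 did in the opposite direction. With all 18 copies added, the family read 196, 173, 191 and 214 CPM in Young, 228, 226, 218 and 223 in Old, and 231, 219, 222 and 274 in Old_CP2. The log2 fold change in Old_CP2 against Young was then 0.29 ± 0.07 in place of 0.37 ± 0.08, and remained called (edgeR adjusted p = 0.034). In Old_CP2 against Old it was 0.078 ± 0.074 in place of 0.14 ± 0.08 (edgeR adjusted p = 0.89).

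Rps2 took 2 levels. It read 76.8 to 81.5 CPM in the 4 Young libraries, 80.1 in Old 9 and 72.0 to 76.0 in Old_CP2 11, 12 and 13, and 39.1, 41.3, 45.9 and 43.0 in Old 7, Old 8, Old 10 and Old_CP2 15. Its copy Rps2-ps10, on chromosome 18, held 27.1 to 31.7% of the reads of the pair in those last 4 libraries and 7.21 to 8.90% in the other 8. The copy gained less than the member lacked: with copies added, the family read 63.9 to 69.2 CPM in the 4 libraries and 82.3 to 95.1 in the other 8. Tbl3, which lies within 60 kb of Rps2 on chromosome 17, read 23.9 to 26.6 CPM in the same 4 libraries and 28.9 to 31.3 in the others. It was picked after its values were seen. Zfp598, Syngr3, Gfer, Noxo1, Ndufb10 and Msrb1, also within 60 kb, overlapped between those sets of libraries. With copies added, the log2 fold change of Rps2 in Old against Young was -0.32 ± 0.11 in place of -0.60 ± 0.21 (edgeR adjusted p = 0.098).

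**Figure D4:**
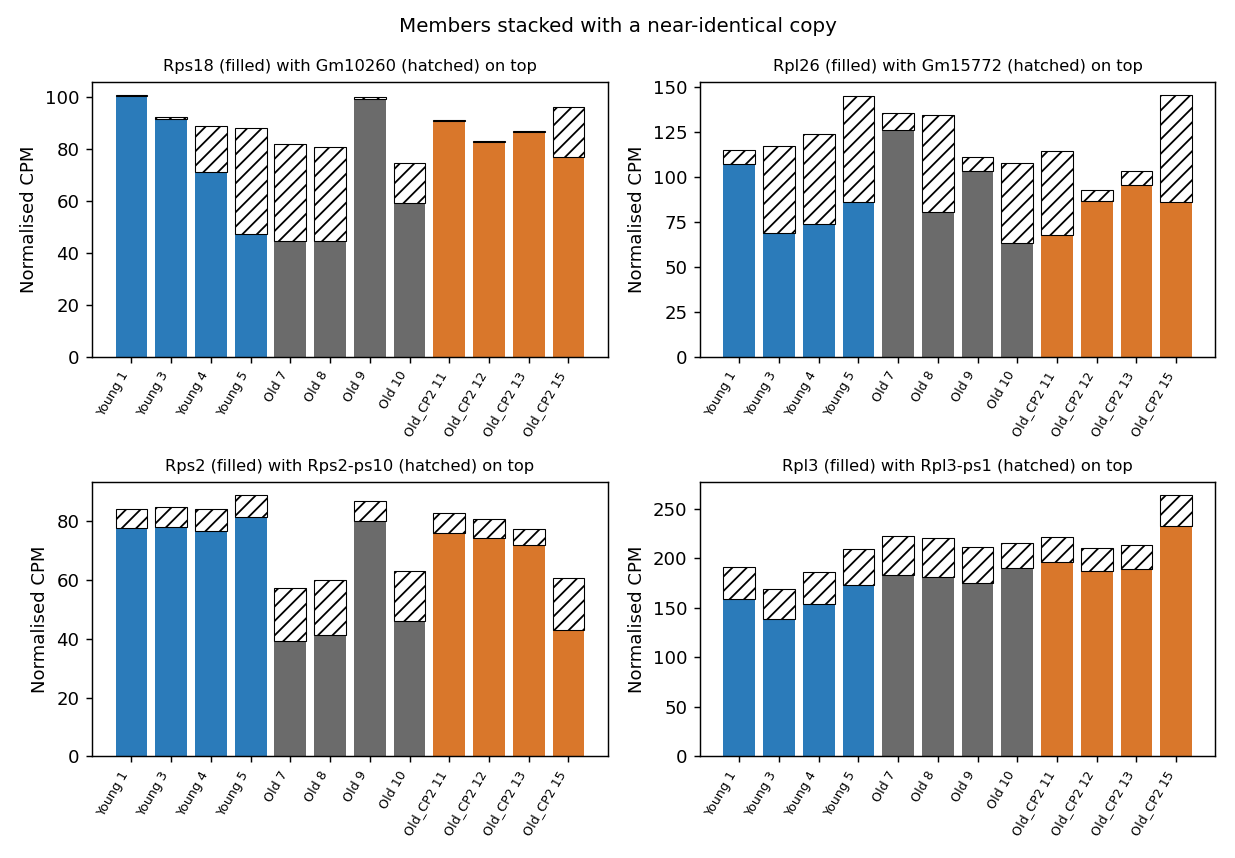
Normalised CPM (vertical axes, from 0) of 4 members (filled, coloured by group) with that of a near-identical copy stacked on top (hatched) in each of the 12 libraries. The Gm10260 part takes 3 levels and the Gm15772 part 2, Rps2 is lower in 4 libraries even with its copy on top, and Rpl3 is higher in Old and Old_CP2 than in Young.

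Adding copies left the other scattered members where they were. Rpl29 had a residual SD of 0.76 alone and 0.69 with its 41 copies, and Rpl34 0.72 and 0.67. Over all members, 11 were above 0.2 before and 8 after, and the median was 0.070 both ways.

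**Figure D5:**
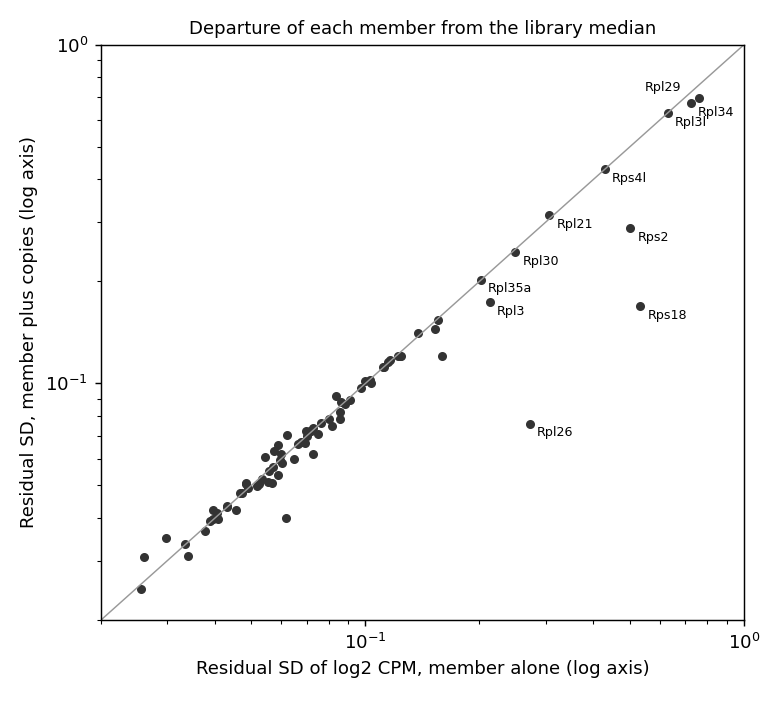
Residual SD of log2 CPM over 12 libraries after subtracting the library median, for each of 82 members alone (horizontal, log axis) and with reads of near-identical copies added (vertical, log axis); the line marks equal values. Rps18, Rpl26 and Rps2 fall well below the line, while Rpl29, Rpl34, Rpl3l and Rps4l stay on or close to it.

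Rpl29 (chr9:106429454-106431568, mm10) read 65.5, 57.0, 36.7 and 72.0 CPM in Young, 14.3, 39.0, 37.7 and 12.9 in Old and 35.5, 51.1, 32.3 and 42.9 in Old_CP2. Old 7 and Old 10 stood apart from the other 10 libraries. In the same pair of libraries the neighbour Abhd14a read 7.68 and 8.56 CPM, against 12.2 to 18.5 in the others, and Dusp7 40.7 and 46.4, against 53.8 to 65.8. Acy1, directly beside Rpl29, read 11.2 and 10.1 CPM there, against 6.93 to 8.88 elsewhere. Gm28959 read 3.51 and 3.54 CPM, against 3.58 to 5.25 elsewhere. Abhd14b, Pcbp4, Gpr62, Parp3 and Rrp9, also within 60 kb of Rpl29, did not set Old 7 and Old 10 apart. Gm17669, a copy of Rpl29 on chromosome 18, read 0.088 and 0.043 CPM in Old 7 and Old 10 and 2.29 to 6.67 in the other 10. These genes were picked after their values were seen, and what the 2 libraries share was not tested.

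Rpl34 (chr3:130726831-130730398, mm10) read 25.4, 22.1, 53.3 and 29.9 CPM in Young, 92.7, 55.4, 48.9 and 19.3 in Old and 46.7, 17.1, 45.9 and 87.0 in Old_CP2. It was highest in Old 7 and Old_CP2 15, and each group spanned more than 2-fold. Rpl21 (78.4 to 182 CPM) and Rpl30 (62.4 to 122 CPM) also varied within groups, and neither was called.

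Ribosomal proteins whose symbols fall outside the naming pattern were read beside the members. Of the 3 given here edgeR called none in any comparison, with 0 at an unadjusted p under 0.05. Over all tested genes, 10.3 to 12.3% passed that level in each direction against Young. In Old_CP2 against Old the shares were 3.06% higher and 3.25% lower. Rpsa, the laminin receptor and a small subunit protein, read 183 ± 17.5, 189 ± 19.7 and 196 ± 14.2 CPM in Young, Old and Old_CP2. Fau read 71.5 ± 8.08, 68.8 ± 6.33 and 67.0 ± 10.97, and Gnb2l1 (Rack1), a signalling scaffold on the small subunit, 159 ± 9.54, 164 ± 10.6 and 155 ± 10.99.

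The wider pathway was read from lists whose sizes are given, and each count of calls stands beside all tested genes: 3.96% higher and 2.74% lower in Old against Young, and 4.63% and 2.94% in Old_CP2 against Young. Genes of these lists were read from the main edgeR fit only. Unlike the members, they were not examined with other tools, the choroid plexus covariate or libraries left out. Of 15 other translation mRNAs with a TOP tract, 1 was higher in Old than in Young, Eif4b, a cofactor of the helicase eIF4A, at 0.15 ± 0.03 (edgeR adjusted p = 0.021), and it was higher in Old_CP2 than in Young too, at 0.13 ± 0.03 (edgeR adjusted p = 0.039). Its CPM was 186 ± 0.83, 206 ± 3.05 and 203 ± 3.39 (SD, n = 4). The elongation factor Eef1a1 read 1375 ± 59.1, 1375 ± 19.98 and 1385 ± 49.0 CPM and the neuronal and muscle form Eef1a2 756 ± 16.3, 720 ± 39.8 and 731 ± 28.9. Of 36 genes of ribosome assembly, 0 were higher and 2 lower in Old than in Young: Rrp9, a protein of the U3 particle that lies within 60 kb of Rpl29, at -0.28 ± 0.07, and Bop1, of large subunit maturation, at -0.19 ± 0.05 (edgeR adjusted p = 0.032 and 0.045). Bop1 was also lower in Old_CP2 than in Young at -0.24 ± 0.05 (edgeR adjusted p = 0.016).

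Of 30 initiation factor genes, 1 was higher in Old than in Young, Eif2s3x, a subunit of the factor that brings the initiator tRNA, at 0.19 ± 0.05 (edgeR adjusted p = 0.028), and the same gene was the 1 called higher in Old_CP2 than in Young, at 0.17 ± 0.05 (edgeR adjusted p = 0.037). Of 27 genes of mTORC1 control, 1 was higher in Old than in Young, Mlst8, a subunit of mTOR complexes, at 0.17 ± 0.04 (edgeR adjusted p = 0.039). In Old_CP2 against Young 3 of these 27 were higher and 1 lower. The 3 were Rragc, a GTPase that brings mTORC1 to the lysosome, at 0.16 ± 0.04, Tsc1, an inhibitor of the pathway, at 0.17 ± 0.04, and Deptor, an mTOR-binding inhibitor named after its value was seen, at 0.39 ± 0.11, while Lamtor1, the lysosomal anchor, was lower at -0.25 ± 0.05 (edgeR adjusted p = 0.019, 0.034, 0.044 and 0.011). Larp1 read 146 ± 7.20, 142 ± 4.33 and 146 ± 1.08 CPM. Of 15 genes of RNA polymerase I, which makes the ribosomal RNA precursor, edgeR called 0. At an unadjusted p under 0.05 there was 1 in each comparison with Young (Polr1e and Znrd1, both lower). Over all tested genes, 10.3% were lower at that level in Old and 10.9% in Old_CP2. In Old_CP2 against Old, 0 genes of these lists were called by edgeR, beside 0.0266% of all genes higher and 0.0177% lower. At an unadjusted p under 0.05 there was 1 initiation factor gene, lower, and in mTORC1 control 1 gene in each direction. Of all genes, 3.06% were higher and 3.25% lower at that level.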

How the data were processed

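Each of the 12 mouse brain libraries was prepared from 200 ng of total RNA by an unstranded method, per the labels' protocols, and read as paired ends of 101 bases, per the series' design text. bcl2fastq, TopHat, Subread and featureCounts on mm10 were used, per the submitters' processing notes; tool versions, and how reads with several matches were handled, are not given in the sources used here. Deposited by the authors were unscaled whole-number counts per gene and RPKM values; only counts were used. Genes and antisense or overlapping partners cannot be separated without strand. Groups came from sample labels.

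The model was edgeR's (version 4.0.16, R 4.3.3; filterByExpr, TMM, quasi-likelihood F test over all 12 libraries, group only), two-sided, with Benjamini-Hochberg adjustment over 22553 genes and a threshold of 0.05; limma was 3.58.1 and DESeq2 1.42.0. Normalised CPM are given per library or as mean ± SD. The SE of a log2 fold change is from the F statistic. The fit was tested on simulated counts. Coding sequences were compared with blastn against GENCODE vM21. Named members were, in each comparison, the 8 of smallest p, the 5 highest and 5 lowest per kilobase, paralogs with partners, the stalk and 8 members with further roles; the members of largest residual SD, their copies and neighbours were added after values were seen. A further gene of the naming rule is not reported here. Members and lists were chosen with earlier results of these data known. Alternatives were other tools and scalings, filters, libraries left out, a length offset, a choroid plexus covariate and copies added to members, the last chosen after seeing the data. No 2 libraries of a group agreed within sampling noise.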

Additional observations from a re-analysis of the deposited data

Results flagged for a closer look

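Dixon's test was run on 105 sets of 4 libraries (34 named members and the summed share, in 3 groups). In 9 of them a library stood far from the other 3. Chance flags about 1 in 20 of independent sets. These sets were not independent, since most members stood high or low together and some were named from these data. The 9 therefore cannot be read against that rate. Rps2 was flagged in 2 groups: in Old 9 at 80.1 CPM, against 39.1 to 45.9 in the other Old libraries, and in Old_CP2 15 at 43.0, against 72.0 to 76.0. Old_CP2 15, the library in which the members together took their largest share, was also apart for Rpl22 at 92.6 CPM (others 75.8 to 76.3), Rpl36 at 51.6 (others 38.1 to 39.0) and Rps27l at 10.4 (others 9.15 to 9.34). Young 5, highest among Young libraries in summed share, was apart for Rplp2 at 74.8 CPM (others 63.7 to 65.5), Rps27 at 58.1 (others 45.1 to 46.5) and Rps27a at 119.6 (others 95.0 to 97.4). Downward, it was apart for Rpl3l at 0.167 CPM (others 0.265 to 0.285), where counting error is not small at 264 reads in all.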

How the results depend on the processing

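The median log2 fold change of the members moved by less than the spread between libraries, 0.15, under every alternative run, in all 3 comparisons. That spread is larger than the medians themselves (-0.0098, -0.071 and -0.074), so this does not show that their size or sign holds. Counts of called members were small and moved by 1 or 2. In Old against Young, members called lower numbered 1; they were 2 with DESeq2, with limma voom, with no filter and without the 4 libraries lowest in choroid plexus, 0 with the choroid plexus covariate, and 0 to 2 when 1 library was left out. Members called higher there were 0, 1 with DESeq2, and 0 to 1 with a library left out. In Old_CP2 against Old, members called higher were 0, and 1 without the 4 libraries lowest in choroid plexus. In Old_CP2 against Young, members called higher were 1; they were 2 with the length offset, 0 with the choroid plexus covariate, 0 without the 4 libraries lowest in choroid plexus, and 1 to 2 with a library left out. Members called lower were 0, 1 with DESeq2, and 0 to 2 with a library left out. How many of all genes each alternative called was not counted, so these changes are not read as a result about the members. Their cause was not tested. No value of the members named by smallest p reversed direction. The summed share in Young, 0.857%, was 0.936% with near-identical copies added. No paired analysis was possible because the groups share no replicate numbers. Counting error is small at this depth except for Rpl3l, which had 264 reads in all.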

Other observations

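Some other near-identical copies took separate levels, and are given as values without a test. These levels crossed the groups, except that the share of Rpl3-ps2 was higher in every Old_CP2 library than in any Young or Old library. The copies were picked after their values were seen, and others with as wide a range over libraries are not listed. Rpl14-ps1, a copy of Rpl14 on chromosome 7, held 4.56 to 5.35% of the reads of the pair in Old 8, Old_CP2 11, 12 and 13, and 12.7 to 13.8% in the other 8 libraries. Gm11478, a copy of Rpl13a on chromosome 11, read 20.7 CPM in Old 7 and 17.8 in Old 9, and 0.997 to 1.68 in the other 10. Gm11942, a copy of Rplp1 on chromosome 4, read 0.111, 0.281 and 0.223 CPM in Young 3, 4 and 5, 0.170 in Old 10 and 0.173 in Old_CP2 15, and 1.48 to 2.40 in the other 7. Rpl3-ps2, a copy of Rpl3 on the X chromosome, held 2.36 to 2.72% of the reads of the pair in the Young libraries, 2.54, 2.50, 3.45 and 3.75% in Old 7, 8, 9 and 10, and 3.86 to 3.98% in those of Old_CP2. Hrsp12, within 60 kb of Rpl30, read 53.8 CPM in Old 7 and 44.1 in Old_CP2 15, and 28.4 to 37.6 in the other 10. Matn2, Erich5 and Pop1, also within 60 kb of Rpl30, did not set that pair of libraries apart.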
